A study of Homo sapiens with 30 samples.

Results

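The comparison described here sets cells given 100 µg/mL of an herbal extract against cells given 20 µg/mL of the same extract, for Soshiho-tang and Yijin-tang, which are multi-herb decoctions of traditional Korean medicine. It was defined by the treatment labels and takes 12 of the 30 libraries of the series, 6 at 100 µg/mL and 6 at 20 µg/mL. SW1783, an established human astrocytoma line, was exposed for 24 h to an aqueous ethanol extract of either decoction, and its RNA was sequenced as directional paired-end libraries. The 4 groups were Soshiho-tang 20, Soshiho-tang 100, Yijin-tang 20 and Yijin-tang 100 µg/mL, with 3 libraries each. Libraries at 500 µg/mL of both extracts and of DMSO vehicle (3 each) are used for levels, and those at 500 µg/mL also in an alternative fit. The labels give 0.1% DMSO for the vehicle whereas the series description gives another percentage, and what DMSO the extract groups received is not given in the sources used here. The series description also says that some extracts were used at lower concentrations set by their toxicity, but the labels of these groups name 500, 100 and 20 µg/mL. Whether the 3 libraries of a group stem from separate cultures is not said, so p-values rest on a spread between libraries that may be only technical. The remaining libraries, of Okbyeongpung-san and Soyo-san extracts, were not used here, and the water extracts and the wortmannin control that the series description names were not analysed here.

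The 12 libraries held between 23.9 and 32.9 M estimated counts, and 16411 genes passed the filter on low counts. Levels are given as CPM (counts scaled to the library total in M) after TMM scaling of library sizes. Mitochondrially encoded transcripts took 6.37% to 9.59% of the counts of a library, with overlapping ranges at 20 and 100 µg/mL in both extracts. GFAP, the intermediate filament that defines mature astrocytes, did not exceed 0.199 CPM in any of the 12 libraries, and S100B, another glial marker, stayed at or under 0.222 CPM. VIM, the intermediate filament vimentin, lay between 4730 and 5560 CPM and CD44, a hyaluronan receptor, between 2650 and 2910 CPM. Among the other astrocyte markers listed, SOX9 lay between 67.9 and 78.1 CPM and NES between 4.67 and 10.4 CPM. The epithelial marker EPCAM stayed at or under 0.0596 CPM, while the leukocyte phosphatase PTPRC lay between 10.1 and 12.9 CPM. No marker list of another cell type had a member that passed the adjusted test in any comparison. Those lists held 2 to 9 measured genes each, and calls were rare among all genes (0.00609% over both extracts, 0.0305% in Soshiho-tang). The absence of calls therefore says nothing on which cell types were present. In bulk RNA, fewer cells of one kind and less RNA per cell cannot be told apart.

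Cells hold their cholesterol within narrow limits through a feedback loop. When sterols are scarce, the transcription factor SREBP2, encoded by SREBF2, is released from the endoplasmic reticulum and raises the genes of cholesterol synthesis, and when sterols are plentiful INSIG proteins hold the factor back. INSIG1 is itself a target of the loop, but the activity of the pathway was not measured here. The aryl hydrocarbon receptor (AhR) is a ligand-activated transcription factor that binds planar aromatic compounds, many of them from plants, and raises genes of xenobiotic metabolism such as CYP1A1 and CYP1B1 together with its own repressors AHRR and TIPARP. Astrocytes supply cholesterol to other cells of the brain and express the AhR pathway.

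The promoter windows of the called genes with an entry are shown first. SREBF2, also shown, was not called in the main edgeR test. The factors of both pathways bind short DNA motifs, and motifs outside these windows were not searched. Each window runs from 250 bases before to 50 bases after the RefSeq start (GRCh38.p14), is written 5′ to 3′ on the strand of the gene, and has capitals where a script found a sterol response motif (TCACNCCAC) or the xenobiotic response core (GCGTG) on either strand. Of 77 genes looked up, 60 had an entry. CYP1B1, which was called in Soshiho-tang, had none.
INSIG1 promoter, chr7:155297628-155297927, plus strand: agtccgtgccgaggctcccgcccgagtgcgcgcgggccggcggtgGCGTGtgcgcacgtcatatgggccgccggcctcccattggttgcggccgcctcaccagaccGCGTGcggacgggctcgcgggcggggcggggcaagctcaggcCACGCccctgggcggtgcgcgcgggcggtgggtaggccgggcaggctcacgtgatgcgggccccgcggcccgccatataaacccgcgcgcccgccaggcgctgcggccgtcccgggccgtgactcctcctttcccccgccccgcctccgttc
SREBF2 promoter, chr22:41832855-41833154, plus strand: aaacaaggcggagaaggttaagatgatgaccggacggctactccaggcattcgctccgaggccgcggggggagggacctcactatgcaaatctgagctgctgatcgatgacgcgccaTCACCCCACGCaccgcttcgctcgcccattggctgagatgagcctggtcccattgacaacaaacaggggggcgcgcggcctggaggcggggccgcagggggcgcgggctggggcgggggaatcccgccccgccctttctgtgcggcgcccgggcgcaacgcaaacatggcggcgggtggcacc
TIPARP promoter, chr3:156674340-156674639, plus strand: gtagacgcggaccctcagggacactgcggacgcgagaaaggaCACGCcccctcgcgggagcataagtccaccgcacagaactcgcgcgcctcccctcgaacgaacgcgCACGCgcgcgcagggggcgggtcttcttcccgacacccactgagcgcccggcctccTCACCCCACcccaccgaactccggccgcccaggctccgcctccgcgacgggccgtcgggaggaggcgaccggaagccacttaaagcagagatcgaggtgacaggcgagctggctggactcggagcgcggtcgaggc
ALDH1A3 promoter, chr15:100879581-100879880, plus strand: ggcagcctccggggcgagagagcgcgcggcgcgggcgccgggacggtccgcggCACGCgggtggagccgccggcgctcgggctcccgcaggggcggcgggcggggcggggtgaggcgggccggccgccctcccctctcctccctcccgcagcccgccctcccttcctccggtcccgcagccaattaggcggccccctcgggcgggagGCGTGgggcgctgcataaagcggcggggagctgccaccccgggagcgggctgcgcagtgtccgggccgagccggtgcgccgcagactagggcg
PTGS2 promoter, chr1:186680374-186680673, minus strand: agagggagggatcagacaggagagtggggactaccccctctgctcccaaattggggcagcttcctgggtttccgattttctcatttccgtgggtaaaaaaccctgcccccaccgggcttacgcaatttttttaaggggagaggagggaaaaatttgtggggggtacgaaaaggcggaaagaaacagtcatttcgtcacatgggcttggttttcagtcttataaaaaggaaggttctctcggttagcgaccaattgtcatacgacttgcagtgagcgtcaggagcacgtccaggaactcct
The INSIG1 window held the xenobiotic response core at -205 and -144 and its reverse complement at -102 (counted from the start, leftmost base of the match), and the carbohydrate response E-box CACGTG at -55. The SREBF2 window held a sterol response motif at -133, which overlaps a reverse xenobiotic core at -127. TIPARP had reverse cores at -208 and -142 and a sterol response motif at -86, ALDH1A3 had a core at -43 and a reverse core at -197, and PTGS2 had none of the motifs searched, which also included the antioxidant response motif TGACNNNGC, the AP-1 motif TGANTCA and the cyclic AMP response motif TGACGTCA. Among all 35116 promoters of the same length, 36.5% held GCGTG, 1.13% held TCACNCCAC and 7.26% held CACGTG on at least 1 strand. Of 18 cholesterol genes with an entry, 15 held GCGTG and 1, SREBF2, held TCACNCCAC, and of 10 AhR targets 8 held GCGTG. These are letter matches in a short window and not binding sites. Shares among promoters of expressed genes or of like base content were not computed, so the counts are not read as an excess.

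INSIG1, the sterol-regulated brake on cholesterol synthesis, fell from 20 to 100 µg/mL over both extracts, and no other gene passed the test. INSIG1 (ENSG00000186480, chr7:155297776-155310235) stood at 153, 152 and 153 CPM in the Soshiho-tang 20 libraries and at 118, 117 and 118 CPM in the Soshiho-tang 100 libraries. Yijin-tang libraries held 180, 179 and 191 CPM at 20 µg/mL and 151, 147 and 152 CPM at 100 µg/mL. Within each extract every library at 100 µg/mL lay below every library at 20 µg/mL. With extract as a covariate INSIG1 fell by 0.33 ± 0.03 on the log2 scale (SE; 6 against 6 libraries; adjusted p = 0.000126 in the edgeR quasi-likelihood test with Benjamini-Hochberg adjustment over all genes; 95% interval -0.4 to -0.27). It was called in each of the 12 fits that left out 1 library, with fold changes from -0.34 to -0.32. The fall was 0.37 ± 0.04 in Soshiho-tang and 0.29 ± 0.04 in Yijin-tang, a difference of -0.08 with an interval from -0.22 to 0.05.

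INSIG1 was the only gene called lower of 16411 tested (0.00609%), and edgeR called no gene higher (0%). At an unadjusted p under 0.05 the same test gave 423 lower genes (2.58%) and 333 higher genes (2.03%), and DESeq2 called 26 lower and 3 higher genes. Leaving out Yijin-tang 100 replicate 2 brought the count to 7, adding HMGCS1, SCD, CYP1B1, ANGPTL4 and 2 genes known only by clone names, and leaving out Soshiho-tang 20 replicate 3 brought it to 2, adding ITGB8. Among 9797 genes at 10 CPM or more, 99.9% had a fitted change smaller than 1.25-fold, and the median half-width of the 95% interval of a gene was 0.0963 on the log2 scale. Of the 7 genes past that fold, INSIG1, the chemokine gene CCL2 and SMIM11B were lower, and AL139099.1, EIF3CL, MAGED4 and SMIM11A were higher. The last 5, named after their values were seen, include members of near-identical gene pairs, between which the counting can shift reads. In all, 11 genes had an adjusted p under 0.1, every one of them lower at 100 µg/mL. Besides INSIG1 they included SCD, HMGCS1, SREBF2, MSMO1, TIPARP, CYP1B1 and ITGB8 (adjusted p = 0.0663 each), LGR6 (0.0743) and SFRP2 (0.0748), none of which passed the threshold of the edgeR test.

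**Figure D1:**
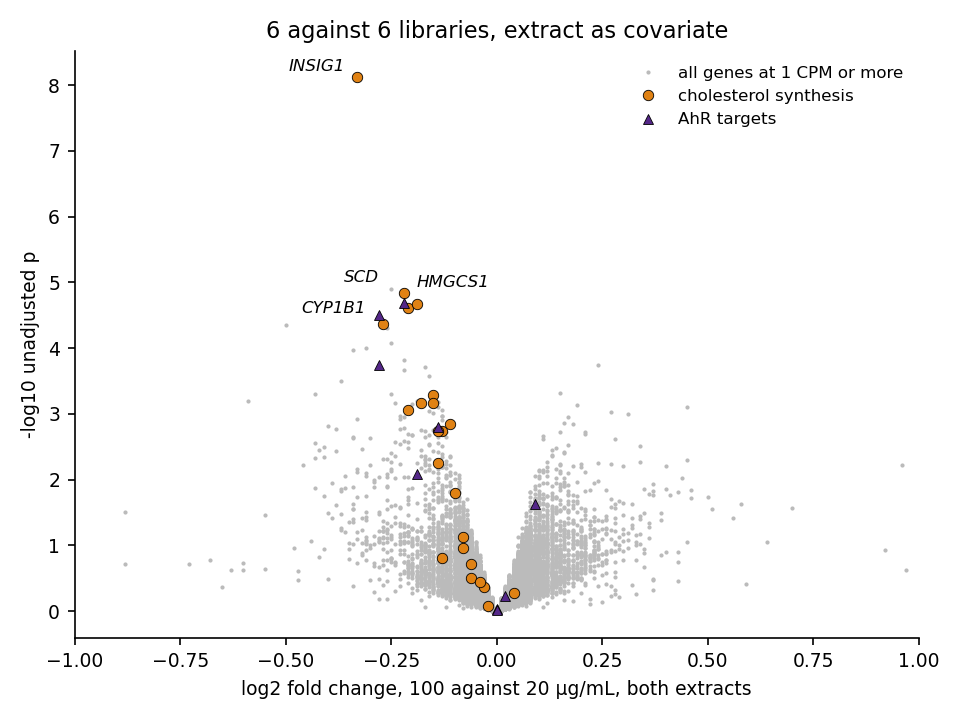
Each grey point is 1 gene at 1 CPM or more (13811 genes, 3 of them outside the axis), placed by its log2 fold change at 100 against 20 µg/mL in both extracts and by the -log10 of its unadjusted p. INSIG1 stands alone at the top. After rounding, 22 of the 23 cholesterol genes drawn (orange) and 5 of the 9 AhR targets drawn (purple) have a fitted value below 0. Before rounding, 8 of the 12 measured AhR targets were below 0.

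The genes of cholesterol synthesis lay below 0 as a group, by small amounts. All 25 listed members were measured. INSIG1 alone was called lower and none higher. At an unadjusted p under 0.05, 15 members were lower against 2.58% of all genes and 0 were higher. The fitted change was below 0 in 23 of the 25, with a median of -0.13 against 0 over all genes. In 11 members (among them INSIG1, HMGCS1, MSMO1, STARD4, SREBF2, LSS, DHCR7, IDI1 and SQLE) every library at 100 µg/mL lay below every library at 20 µg/mL in both extracts, which held for 0.548% of all genes, while the opposite held for no member and for 0.335% of all genes. The extracts gave like medians, -0.13 in Soshiho-tang and -0.11 in Yijin-tang. The list was chosen with earlier results of these libraries known, so its direction is no independent evidence.

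Among the regulators, SREBF2, the master factor of the pathway, stood at 89.7, 86.6 and 85.2 CPM in Soshiho-tang 20 and at 80, 74.6 and 78.1 CPM in Soshiho-tang 100. The Yijin-tang values were 89.5, 89.7 and 89 CPM at 20 µg/mL and 74.3, 79.8 and 78.1 CPM at 100 µg/mL. The groups did not overlap in either extract (log2 fold change -0.19 ± 0.03 SE over both; adjusted p = 0.0663, edgeR). Of the transport genes, STARD4, a cytosolic sterol carrier, had a fitted change of -0.21 ± 0.05 (adjusted p = 0.347, edgeR) and no overlap in either extract.

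Of the enzymes, HMGCS1, which makes HMG-CoA at the entry of the pathway, stood at 55.4, 52.6 and 55.7 CPM in Soshiho-tang 20 and at 43.3, 47.2 and 45.7 CPM in Soshiho-tang 100. The levels in Yijin-tang were 50, 50.1 and 48.2 CPM at 20 µg/mL and 42.4, 45.5 and 43.7 CPM at 100 µg/mL. Its groups were separate in both extracts (-0.22 ± 0.04; adjusted p = 0.0663, edgeR). MSMO1, a sterol demethylase, had -0.21 ± 0.04 with the same adjusted p. SQLE, the squalene epoxidase that acts further down, had -0.11 ± 0.03, and DHCR7, which acts in the last steps of the pathway, had -0.15 ± 0.03. The members nearest to or above 0 were FDPS at -0.03 ± 0.04, PMVK at -0.02 ± 0.1, MVD at 0.04 ± 0.06 and TM7SF2 at 0.15 ± 0.27, the last of them between 0.465 and 1.41 CPM. Differences between members were not tested.

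**Figure D2:**
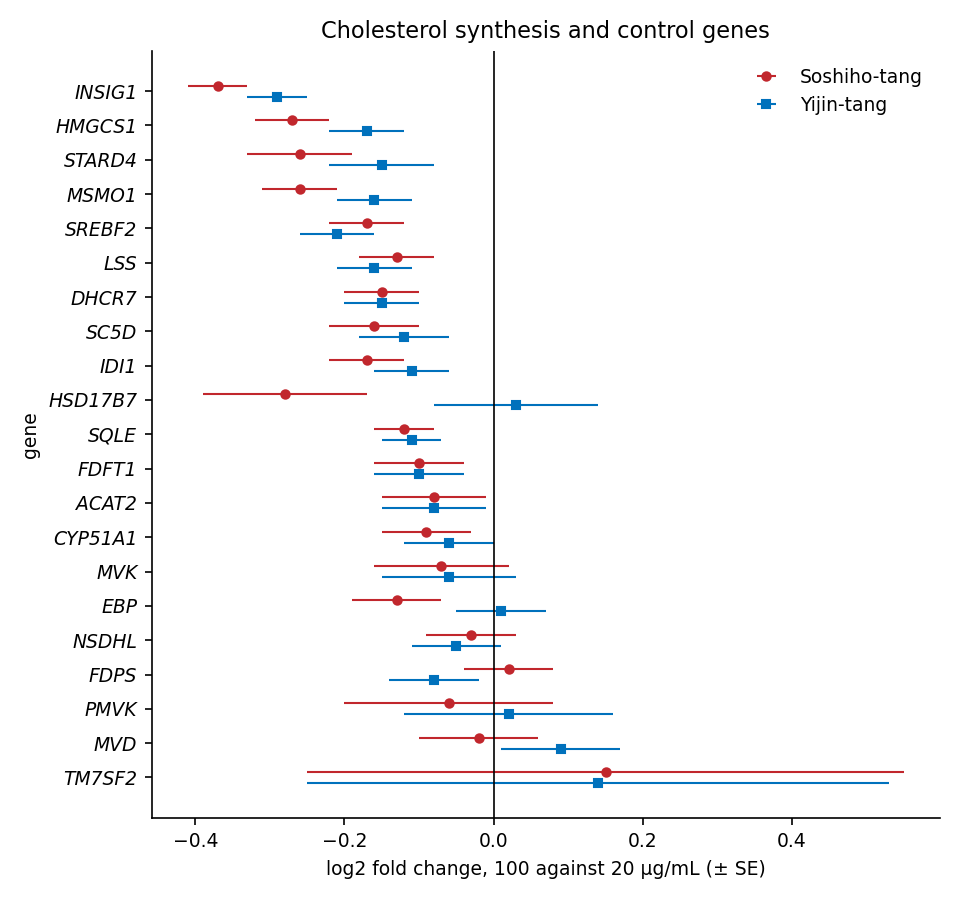
The 21 genes drawn of the cholesterol synthesis list are ordered by their fitted change over both extracts, with the log2 fold change at 100 against 20 µg/mL in Soshiho-tang (red circles) and Yijin-tang (blue squares); bars are ± SE. INSIG1 has the narrowest bars among the genes far from 0, and most members lie left of 0 in both extracts.

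Genes of fatty acid synthesis, which share regulators with the sterol pathway, held no member past the main edgeR test. Of 17 listed genes 16 were measured and none was called; 3 were lower at an unadjusted p under 0.05 (SCD, FADS2 and SREBF1) and 0 higher, against 2.58% and 2.03% of all genes, with a median of -0.02. SCD, the desaturase that makes oleic acid, stood at 279, 292 and 271 CPM in Soshiho-tang 20 and at 241, 249 and 232 CPM in Soshiho-tang 100. SCD measured 285, 275 and 258 CPM in Yijin-tang 20 and 208, 238 and 232 CPM in Yijin-tang 100. SCD did not overlap in either extract (-0.25 ± 0.04; adjusted p = 0.0663, edgeR). FADS2, a desaturase of polyunsaturated fatty acids, had -0.17 ± 0.04 and SREBF1, which encodes the lipogenic factor SREBP1, -0.17 ± 0.05. Over both extracts DESeq2 called SCD and FADS2 lower (adjusted p = 1.03e-05 and 0.0094). With the 500 µg/mL libraries in the fit, edgeR called SCD (adjusted p = 0.0114). The values of ACACA, ACLY and FASN, which carry out the bulk of fatty acid synthesis, were -0.05 ± 0.05, -0.02 ± 0.03 and -0.11 ± 0.05, with overlapping groups. Among 9 measured targets of the oxysterol receptor LXR, none was called, SCD, SREBF1 and the ubiquitin ligase gene MYLIP were lower at an unadjusted p under 0.05, and NR1H3, which encodes LXR alpha, was higher at that p, at 0.4 ± 0.13, against the same shares of all genes.

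In Soshiho-tang alone, 5 genes fell from 20 to 100 µg/mL and none rose. They were INSIG1, 2 AhR targets (CYP1B1 and TIPARP), the retinoic acid-producing enzyme ALDH1A3 and the prostaglandin synthase PTGS2. The 5 genes are 0.0305% of all genes tested, and 0% were called higher; at an unadjusted p under 0.05 the edgeR test gave 300 lower (1.83%) and 226 higher (1.38%), and DESeq2 called 12 lower and 1 higher. All 5 showed no overlap between the 3 libraries at 100 and the 3 at 20 µg/mL, as did 4.32% of all genes in this direction.

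CYP1B1 (ENSG00000138061, chr2:38066973-38109902), a monooxygenase that oxidises estrogens and aromatic hydrocarbons, stood at 91.5, 90 and 90.1 CPM in Soshiho-tang 20 and at 65.8, 69.8 and 67.1 CPM in Soshiho-tang 100. It fell by 0.42 ± 0.05 (SE; adjusted p = 0.00408, edgeR), the furthest of the 5. In Yijin-tang it stood at 138, 142 and 146 CPM at 20 µg/mL and at 121, 136 and 130 CPM at 100 µg/mL. These groups did not overlap either, but the fitted value of -0.14 ± 0.05 did not pass (adjusted p = 1, edgeR). The difference between extracts was -0.28 with an interval from -0.44 to -0.13, an unadjusted p of 0.00115 and an adjusted p of 1 (edgeR).

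TIPARP (ENSG00000163659, chr3:156673235-156706770), a mono-ADP-ribosyltransferase that restrains the AhR, stood at 43.6, 43.8 and 45.1 CPM in Soshiho-tang 20 and at 35.4, 35.7 and 36.2 CPM in Soshiho-tang 100, and fell by 0.3 ± 0.05 (adjusted p = 0.0404, edgeR). In Yijin-tang it stood at 63.2, 60.9 and 64.6 CPM at 20 µg/mL and at 55.6, 57.2 and 58.5 CPM at 100 µg/mL. Here too the libraries at 100 µg/mL were all lower, at -0.14 ± 0.05 (adjusted p = 1, edgeR).

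ALDH1A3 (chr15:100877714-100916626) stood at 579, 598 and 562 CPM in Soshiho-tang 20 and at 440, 462 and 471 CPM in Soshiho-tang 100, and fell by 0.34 ± 0.05 (adjusted p = 0.0261, edgeR). In Yijin-tang its libraries ran from 702 to 757 CPM at 20 µg/mL and from 662 to 682 CPM at 100 µg/mL, with a fitted value of -0.1 ± 0.05. PTGS2 (chr1:186671791-186680427), the inducible cyclooxygenase, stood at 84.4, 82 and 77.7 CPM in Soshiho-tang 20 and at 66.2, 64.4 and 64.7 CPM in Soshiho-tang 100, and fell by 0.32 ± 0.05 (adjusted p = 0.0404, edgeR). In Yijin-tang the PTGS2 groups overlapped, from 96 to 105 CPM at 20 µg/mL and from 92.5 to 99.2 CPM at 100 µg/mL.

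The Soshiho-tang calls depended on single libraries. No gene was called without Soshiho-tang 20 replicate 1 or without Soshiho-tang 100 replicate 3, where the lowest adjusted p among these 5 genes was 0.0503 and 0.0567 (INSIG1 and CYP1B1, edgeR). Only INSIG1 and CYP1B1 of the 5 were called without Soshiho-tang 100 replicate 1 or 2, Soshiho-tang 20 replicate 2, or Yijin-tang 20 replicate 1 or 2, with 2 to 5 genes called in all. The count was 8 without Yijin-tang 100 replicate 2, which added HMOX1, GDA and a clone-named gene. Without Yijin-tang 100 replicate 3 or Yijin-tang 20 replicate 3 the count was 3, with ALDH1A3 as the third gene. The fold changes themselves moved little over the 12 fits, from -0.45 to -0.4 for CYP1B1, -0.36 to -0.31 for ALDH1A3, -0.35 to -0.3 for PTGS2 and -0.31 to -0.29 for TIPARP.

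**Figure D3:**
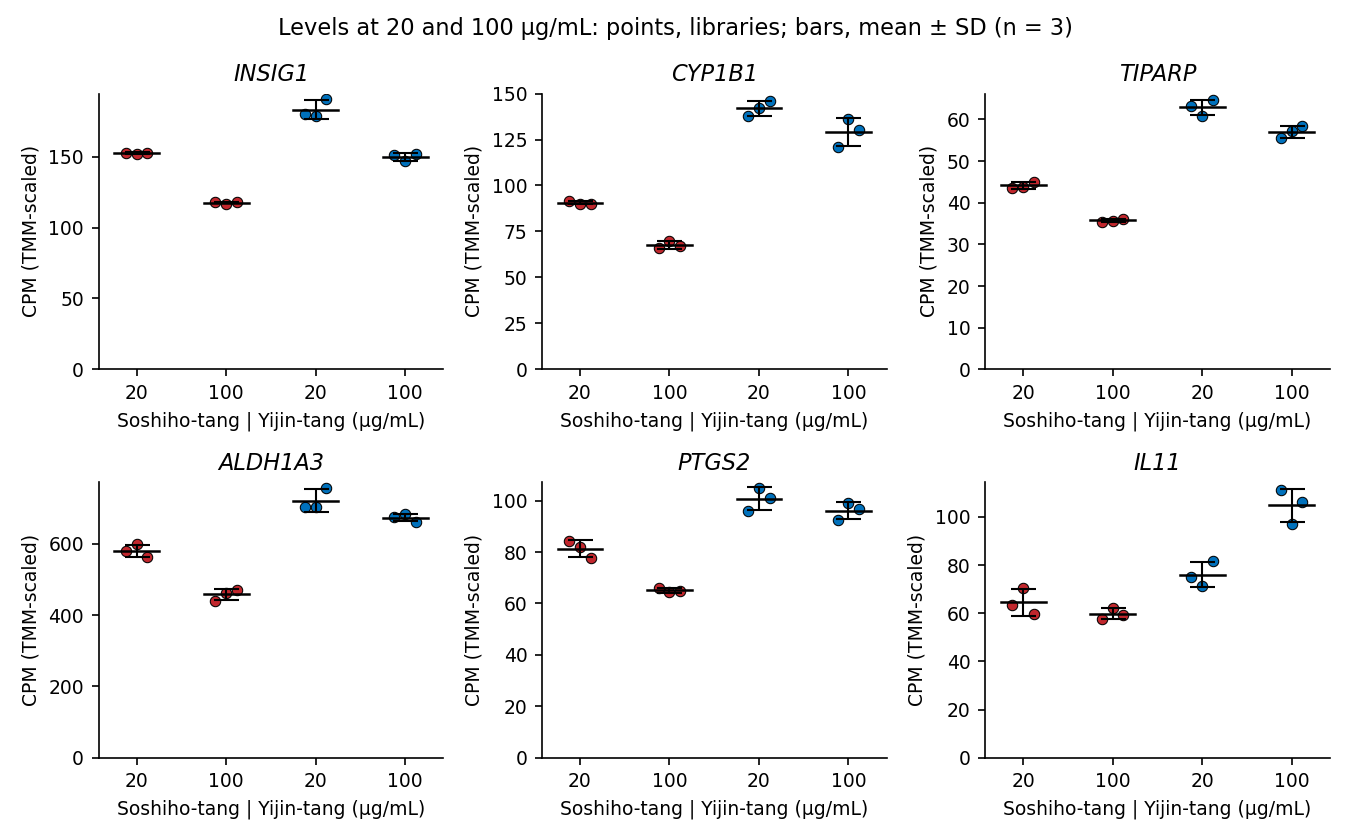
Levels (TMM-scaled CPM) of the 5 genes called in Soshiho-tang and of IL11 at 20 and 100 µg/mL in Soshiho-tang (red) and Yijin-tang (blue); each point is 1 library and bars are the mean ± SD of 3. INSIG1, CYP1B1, TIPARP and ALDH1A3 separate in both extracts with wider gaps in Soshiho-tang, PTGS2 separates in Soshiho-tang alone, and IL11 is higher at 100 µg/mL in Yijin-tang alone.

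The other genes near the threshold in Soshiho-tang were also lower at 100 µg/mL. GDA, the guanine deaminase, stood at 25.3, 26.2 and 26.3 CPM in Soshiho-tang 20 and at 19.4, 20.2 and 19.9 CPM in Soshiho-tang 100 (-0.39 ± 0.07; adjusted p = 0.0634, edgeR). ABCG2, an efflux transporter of xenobiotics, stood at 22.1, 24.3 and 23 CPM against 17.6, 19.1 and 17.9 CPM (-0.35 ± 0.06; adjusted p = 0.0989, edgeR). Among genes higher at 100 µg/mL, the lowest p belonged to HMOX1, the heme-degrading enzyme heme oxygenase 1, which stood at 59, 56.4 and 56.3 CPM in Soshiho-tang 20 and at 72.9, 69.2 and 71.8 CPM in Soshiho-tang 100 (0.32 ± 0.06; adjusted p = 0.131, edgeR). Its libraries did not overlap, whereas in Yijin-tang HMOX1 ran from 58.5 to 63.5 CPM at 20 µg/mL and from 53.1 to 61.8 CPM at 100 µg/mL. ANGPTL4, a lipoprotein lipase inhibitor, the long noncoding RNA LINC00601, the DNA methyltransferase DNMT3B and TEDC2 followed with 0.42 ± 0.11, 0.6 ± 0.13, 0.44 ± 0.11 and 0.31 ± 0.08, none of which passed (lowest adjusted p = 0.344, edgeR).

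Taking AhR targets as a list, 12 of 14 were measured. In Soshiho-tang CYP1B1 and TIPARP were called, 5 members were lower at an unadjusted p under 0.05 (1.83% of all genes) and 0 higher, and 6 showed no overlap with all libraries at 100 µg/mL lower, against 4.32% of all genes. The median change was -0.11. In Yijin-tang no member was called, 3 were lower and 1 higher at an unadjusted p under 0.05 (1.82% and 1.41% of all genes), 3 showed no overlap downwards against 4.16% of all genes, and the median was -0.04. AHRR, the AhR repressor, stood at 29.6, 29.1 and 28.6 CPM in Soshiho-tang 20 and at 22.6, 19.6 and 23.3 CPM in Soshiho-tang 100 (-0.41 ± 0.08; adjusted p = 0.154, edgeR). In Yijin-tang it stood at 38.5, 42.2 and 36.6 CPM against 31.6, 37.3 and 35.7 CPM, with overlap. SERPINB2, a plasminogen activator inhibitor, and STC2, a secreted glycoprotein, had -0.35 ± 0.08 and -0.22 ± 0.05 in Soshiho-tang and -0.06 ± 0.08 and -0.06 ± 0.05 in Yijin-tang.

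CYP1A1, the most used marker of AhR activity, was barely detected. It stood at 0.591, 0.625 and 0.482 CPM in Soshiho-tang 20 and at 0.365, 0.403 and 0.379 CPM in Soshiho-tang 100, and between 0.644 and 1.47 CPM in the 6 Yijin-tang libraries. Neither fitted value (-0.57 ± 0.33 and 0.24 ± 0.26) passed. NQO1, a quinone reductase shared with NRF2, had 0.02 ± 0.06 in Soshiho-tang and -0.01 ± 0.06 in Yijin-tang, and the fitted value over both extracts changed sign between alternative settings. Of the 5 genes called in Soshiho-tang, INSIG1, ALDH1A3 and PTGS2 are not on the list of AhR targets.

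**Figure D4:**
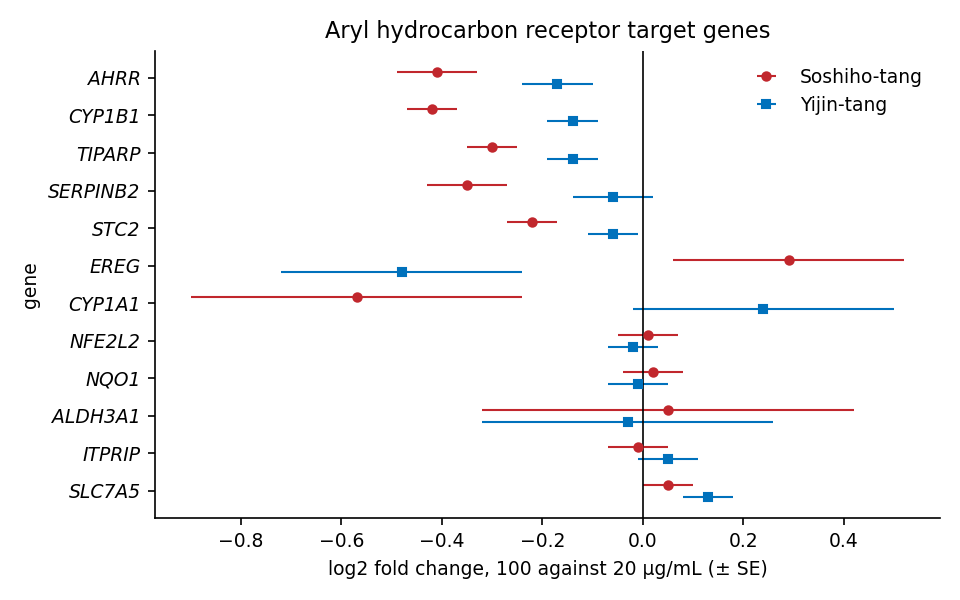
The 12 measured AhR targets are ordered by their fitted change over both extracts, with the log2 fold change at 100 against 20 µg/mL in Soshiho-tang (red circles) and Yijin-tang (blue squares); bars are ± SE. CYP1B1 and TIPARP were called in Soshiho-tang; CYP1A1, EREG and ALDH3A1, with wide bars, are at low levels.

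In Yijin-tang alone edgeR called no gene in either direction (0% of 16411 genes). At an unadjusted p under 0.05 the test gave 299 lower (1.82%) and 232 higher (1.41%), and DESeq2 called 4 lower and 2 higher. The 3 lowest p-values shared an adjusted p of 0.0508 and belonged to INSIG1, IL11 and SULT1A4. IL11 (chr19:55364389-55370463), a cytokine of the interleukin-6 family, stood at 74.9, 71.5 and 81.6 CPM in Yijin-tang 20 and at 111, 97.1 and 106 CPM in Yijin-tang 100 (0.47 ± 0.07). All libraries at 100 µg/mL were higher, while in Soshiho-tang IL11 ran from 59.7 to 70.4 CPM at 20 µg/mL and from 57.8 to 62.3 CPM at 100 µg/mL. IL11 passed without Soshiho-tang 20 replicate 2 (adjusted p = 0.0395, edgeR), as SULT1A4 did without Soshiho-tang 100 replicate 2 (0.00719).

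SULT1A4 and SULT1A3 are near-identical sulfotransferase genes, and the counting can split reads between them. SULT1A4 stood at 1.61, 1.3 and 1.19 CPM in Yijin-tang 20 and at 0.292, 0.208 and 0.252 CPM in Yijin-tang 100, a fitted value of -2.41 ± 0.37. SULT1A3 went the other way, from 0.926, 0.889 and 2.55 CPM to 2.4, 3.25 and 3.74 CPM. Their sum overlapped between groups, at 2.54, 2.19 and 3.74 CPM against 2.69, 3.46 and 3.99 CPM, so the values of the single genes are uncertain.

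The other genes with the lowest p in Yijin-tang did not pass. KRT81, a hair keratin, stood at 115, 112 and 120 CPM at 20 µg/mL and at 161, 132 and 142 CPM at 100 µg/mL (0.33 ± 0.07; adjusted p = 0.512, edgeR). INHBA, an activin subunit, stood at 85.4, 83.2 and 88.5 CPM against 99.7, 98.2 and 96.8 CPM (0.2 ± 0.05). ZNF730, a zinc finger gene, and ARL14, a small GTPase, had 0.6 ± 0.16 and 1.13 ± 0.28 at levels under 3 CPM. Lower at 100 µg/mL were SCD, NR2F1, a nuclear receptor, at -0.21 ± 0.05, and TGFBR3, the betaglycan co-receptor for TGF-beta, at -0.44 ± 0.09. KRT81, ZNF730 and NR2F1 moved the same way without overlap in Soshiho-tang, at 0.15 ± 0.07, 0.32 ± 0.15 and -0.1 ± 0.05. The Soshiho-tang groups of INHBA, ARL14 and TGFBR3 overlapped (-0.1 ± 0.05, 0.11 ± 0.3 and -0.08 ± 0.09). Over both extracts DESeq2 called KRT81 and NR2F1 (adjusted p = 0.0052 and 0.00594).

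The test of the difference between extracts asks whether the step from 20 to 100 µg/mL was unequal. edgeR called no gene (0%), with 362 at an unadjusted p under 0.05 (2.21%), and DESeq2 called 1, IL11. Without Soshiho-tang 100 replicate 1 edgeR called 2, both known only by clone names. For IL11 the difference (Soshiho-tang minus Yijin-tang) was -0.58 ± 0.1, with an interval from -0.79 to -0.37, an unadjusted p of 2.8e-05 and an adjusted p of 0.459 (edgeR). The next lowest p towards Yijin-tang belonged to F3 (tissue factor), INHBA, CYP1B1 and SULT1A3. Towards Soshiho-tang they included HMOX1 at 0.36 ± 0.08, DTNA, DBNDD1 and FZD5, all with an adjusted p of 1. F3, the initiator of coagulation, ran opposite ways without overlap, from 159 to 164 CPM down to 146 to 150 CPM in Soshiho-tang and from 168 to 172 CPM up to 180 to 196 CPM in Yijin-tang, a difference of -0.28 ± 0.06. INSIG1 was called in Soshiho-tang and missed the threshold in Yijin-tang, but the interval of its difference included 0.

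The remaining lists held no called member over both extracts. Of 27 measured targets of ATF4, the factor of the integrated stress response, 6 were higher and 1 lower at an unadjusted p under 0.05, against 2.03% and 2.58% of all genes, with a median of 0.06. ASNS (asparagine synthetase) and TRIB3 (a pseudokinase) had 0.12 ± 0.04 and 0.16 ± 0.06, and GDF15, a stress cytokine, overlapped in both extracts, at 3.32, 2.92 and 3.63 CPM against 5.28, 3.47 and 4.1 CPM in Soshiho-tang. DDIT3, the stress factor CHOP, had 0.09 ± 0.05. Of 28 NRF2 targets 1 was higher and 1 lower, with a median of 0. In Soshiho-tang alone HMOX1, FTL (ferritin light chain) and SQSTM1 (an autophagy receptor) were higher at an unadjusted p under 0.05 (1.38% of all genes), at 0.32 ± 0.06, 0.21 ± 0.08 and 0.16 ± 0.05, against -0.04 ± 0.06, 0.01 ± 0.08 and -0.05 ± 0.05 in Yijin-tang. The 19 endoplasmic reticulum chaperones and 17 heat shock genes had 0 members past that p in either direction.

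Hypoxia genes and mitotic genes had medians just above 0. Of 20 hypoxia genes 6 were higher and 0 lower at an unadjusted p under 0.05, against 2.03% of all genes, and the median was 0.05. They were ANGPTL4 at 0.31 ± 0.08, CA9 (carbonic anhydrase 9) at 0.17 ± 0.05, BNIP3 (a mitophagy receptor) at 0.16 ± 0.05, PFKFB4 at 0.13 ± 0.04, NDRG1 at 0.12 ± 0.04 and P4HA1 at 0.08 ± 0.03. In Soshiho-tang alone 3 hypoxia genes were higher and 1 lower at that p (1.38% and 1.83% of all genes). There 9 of 20 were below 0, with a median of 0.02. In Yijin-tang 5 were higher and 0 lower (1.41% and 1.82% of all genes). There 3 of 20 were below 0, with a median of 0.07. Of 32 mitotic genes 31 had a fitted value of at least 0, 5 were higher at that p and the median was 0.04. CCNB2 and CCNA2, cyclins of mitotic entry, had 0.15 ± 0.03 and 0.11 ± 0.03, while MKI67, the proliferation marker, had 0.04 ± 0.08 with overlapping groups. Among 35 replication genes 4 were higher and 0 lower, with a median of 0.03. Genes of such lists are expressed together, and their medians were not tested.

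Matrix and inflammatory genes were mixed. The collagen gene COL1A1 had 0.01 ± 0.04, COL1A2 -0.12 ± 0.04 and COL3A1 -0.13 ± 0.04, and of 20 collagen genes 3 were lower and 0 higher at an unadjusted p under 0.05, against 2.58% and 2.03% of all genes. THBS1, the matrix glycoprotein thrombospondin 1, stood at 1880, 1940 and 1670 CPM in Soshiho-tang 20 and at 1600, 1570 and 1570 CPM in Soshiho-tang 100 without overlap (-0.21 ± 0.06; adjusted p = 0.944, edgeR), and overlapped in Yijin-tang. CCL2, a monocyte chemokine, stood at 11.7, 10.5 and 14.3 CPM in Soshiho-tang 20 and at 10.9, 8.99 and 8.34 CPM in Soshiho-tang 100. In Yijin-tang it stood at 17, 15.7 and 14.7 CPM against 13.1, 10.6 and 12.7 CPM. Only the Yijin-tang groups of CCL2 were separate, and the fitted value was -0.37 in each extract (-0.37 ± 0.08 over both; adjusted p = 0.237, edgeR). IL6, the inflammatory cytokine, had 0.24 ± 0.12.

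The levels at 500 µg/mL and in vehicle place the step from 20 to 100 µg/mL within the whole range, without a test, since they share libraries with it or, for vehicle, come from libraries whose names form a set of their own. INSIG1 stood at 92.9 ± 1.17 CPM in Soshiho-tang 500 and 107 ± 2.08 CPM in Yijin-tang 500 (SD, n = 3). Vehicle, at 137 ± 5.58 CPM, lay below both 20 µg/mL groups, above Soshiho-tang 100 and below Yijin-tang 100. HMGCS1 stood at 40.7 ± 1.96 CPM in vehicle, below its means at 20 and 100 µg/mL. These were 54.6 ± 1.7 and 45.4 ± 2 CPM in Soshiho-tang and 49.5 ± 1.06 and 43.9 ± 1.57 CPM in Yijin-tang. At 500 µg/mL HMGCS1 was at 41.7 ± 2.28 CPM in Soshiho-tang, near vehicle, and at 36 ± 0.374 CPM in Yijin-tang, below vehicle. SREBF2 stood at 102 ± 3.95 CPM in vehicle, above both 20 µg/mL groups (87.1 ± 2.28 CPM in Soshiho-tang and 89.4 ± 0.325 CPM in Yijin-tang).

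CYP1B1 was at 54.5 ± 3.07 CPM in Soshiho-tang 500, below the 67.6 ± 2.05 CPM of Soshiho-tang 100, and at 149 ± 3.84 CPM in Yijin-tang 500, above the 129 ± 7.57 CPM of Yijin-tang 100. Its vehicle level of 129 ± 8.7 CPM lay above Soshiho-tang 20 (90.5 ± 0.838 CPM) and below Yijin-tang 20 (142 ± 3.9 CPM). ALDH1A3 did not keep to one direction in Soshiho-tang, at 580 ± 17.8, 458 ± 15.9 and 567 ± 4.16 CPM at 20, 100 and 500 µg/mL. For HMOX1, GDF15 and TXNIP the step from 100 to 500 µg/mL was wider than the step from 20 to 100 µg/mL. HMOX1 went from 57.2 ± 1.52 to 71.3 ± 1.91 and then 406 ± 24.9 CPM in Soshiho-tang, and GDF15 from 3.29 ± 0.358 to 4.28 ± 0.921 and then 50.7 ± 6.14 CPM. TXNIP, a redox regulator that follows cellular glucose, went from 9.54 ± 1.17 to 11.7 ± 1.19 and then 51.1 ± 1.91 CPM in Yijin-tang. IL11 stood at 76 ± 5.16, 105 ± 7.22 and 136 ± 10.5 CPM at the 3 concentrations of Yijin-tang and at 64.5 ± 5.43, 59.8 ± 2.31 and 45.2 ± 7.35 CPM at those of Soshiho-tang.

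**Figure D5:**
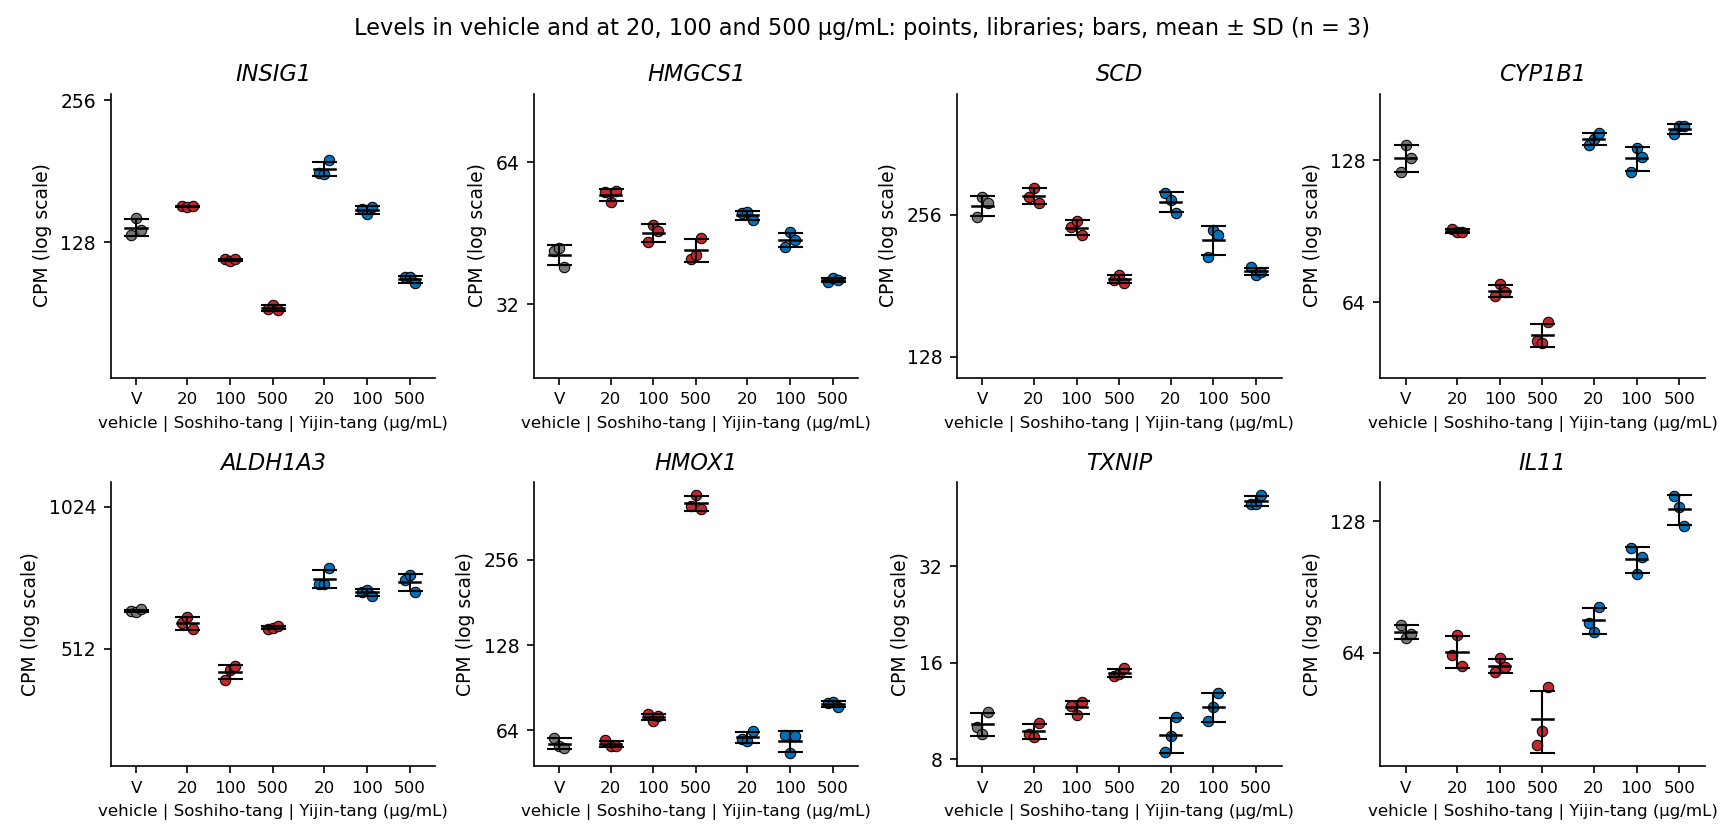
Levels (TMM-scaled CPM, log axis) of 8 genes in vehicle (V, grey) and at 20, 100 and 500 µg/mL of Soshiho-tang (red) and Yijin-tang (blue); each point is 1 library and bars are the mean ± SD of 3. The means of INSIG1, HMGCS1 and SCD are lower at each higher concentration of both extracts, while HMOX1 in Soshiho-tang and TXNIP in Yijin-tang are far higher at 500 µg/mL alone.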

How the data were processed

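Groups of SW1783 libraries follow the treatment named in the labels. The deposited values are estimated counts for each Ensembl gene, and the submitters' processing notes name FastQC 0.11.9, Trim Galore 0.6.5, STAR 2.7.3a and RSEM 1.3.3 on hg38/GRCh38 as what the authors used to make each estimated count. The annotation and strand setting are "not given in the sources used here". Values of overlapping, antisense and near-identical genes are uncertain for that reason. Symbols and coordinates came from GENCODE v29 (57055 of 60675 entries matched), and 30 blank columns were not used.

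Counts were rounded. Genes were filtered with filterByExpr (minimum count 10, minimum total 15), scaled by TMM and tested by quasi-likelihood in edgeR 4.0.16 (R 4.3.3), with Benjamini-Hochberg adjustment over all genes and a threshold of 0.05. The fit of both extracts had extract as covariate. Each extract alone and their difference came from 1 fit of 4 group means. DESeq2 1.42.0 was an alternative. CPM were computed from 21 libraries scaled together. At the smallest depth of 23.9 M, 1 CPM rests on over 20 reads, and the number of libraries limits the precision. Pairs of libraries of a group differed by 3.62 to 25.75 in chi-square per degree of freedom, so none looked like a repeat. The test was tried on simulated data.

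The comparison, gene lists and panel were chosen with earlier results of these data known. Named genes were those called, those with the 5 lowest p in a direction where fewer than 5 were called in an extract or in the difference, and a panel. Genes under an adjusted p of 0.1 and the list members given with unadjusted p-values were chosen after their values were seen. Some genes that the rule or a list selected are not reported here, and counts over lists include them.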

Additional observations from a re-analysis of the deposited data

How the results depend on the processing

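Over both extracts the count of called genes was 1, and it stayed 1 with DESeq2 size factors, a stricter filter (1 CPM in 6 libraries) and the replicate block. It was 107 without a filter on low counts, 29 with DESeq2 and 9 with the 500 µg/mL libraries in the fit (18 libraries), and 1 to 7 when 1 library was left out. INSIG1 was called in all of these, and cholesterol genes made up 7 of the 107, 6 of the 29 and 5 of the 9. The cholesterol list is 25 of the 16411 genes tested in the main fit. It was chosen with earlier results of these libraries known, so these counts are no independent evidence. In Soshiho-tang the count of 5 became 97 without a filter, 13 with DESeq2 and 3 with the 6 libraries of that extract, and 0 to 8 when 1 library was left out. In Yijin-tang the count of 0 became 66 without a filter, 2 with the stricter filter, 6 with DESeq2 and 1 with 18 libraries, and 0 to 1 when 1 library was left out. The difference between extracts, with 0 called, gave 68 without a filter, 1 with DESeq2 and 0 to 2 when 1 library was left out. The cause of these shifts was not tested.

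Replicate numbers are shared between groups, but the labels do not say what a number marks, and deviations of same-numbered libraries from their group means correlated between -0.31 and 0.37. With the replicate block, 1 gene was called over both extracts, 2 in Soshiho-tang (INSIG1 and CYP1B1), 0 in Yijin-tang and 0 for the difference. The 6 Soshiho-tang libraries with the block gave 3. Not every library correlated best with its own number.

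Of the 60 single-gene results, 6 were called. Over 1120 alternative values, 1013 stayed on the same side of the threshold, 39 lost the call, 68 gained one and 0 reversed a call. All 39 losses fell on the 6 called results. Of the 54 uncalled results, 28 were called in at least 1 alternative. The signs of NQO1, COL1A1, CYP1A1 and MKI67 over both extracts, none of them called, changed in at least 1 alternative and are among the 1013. With 3 libraries a group, the median 95% interval of a gene in 1 extract had a half-width of 0.14 on the log2 scale before adjustment over all genes. The adjusted test needed more: INSIG1 at -0.29 ± 0.04 in Yijin-tang missed the threshold (adjusted p = 0.0508, edgeR).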

Other observations

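Of the gene groups that the text above leaves out, the mitochondrially encoded genes, metallothioneins and glucocorticoid-responsive genes held no member past the adjusted edgeR test. All 13 mitochondrially encoded genes had a fitted value above 0 at 100 against 20 µg/mL in Soshiho-tang, with a median of 0.17, and 12 of 13 were below 0 in Yijin-tang, with a median of -0.07. No member reached an unadjusted p under 0.05 in either extract. Without the filter on low counts edgeR called MT-ND2, MT-ND3 and MT-ND1 higher in Soshiho-tang (0.28, 0.28 and 0.25; adjusted p = 0.00341, 0.00283 and 0.0256) and MT-ND2 in the difference between extracts (0.35; adjusted p = 0.0319). That setting called many more genes in all, as given above, so these calls are uncertain. The share of mitochondrial counts in the 3 Soshiho-tang 20 libraries (6.8%, 6.37% and 9.03%) overlapped that in Soshiho-tang 100 (9.01%, 7.67% and 8.05%). Metallothionein genes encode metal-binding proteins, and 6 were measured. In Soshiho-tang 2 were higher and 0 lower at an unadjusted p under 0.05, against 1.38% and 1.83% of all genes, and 2 were below 0. The 2 higher were MT1X at 0.37 ± 0.1 and MT1E at 0.3 ± 0.12 (unadjusted p = 0.00144 and 0.022, edgeR). In Yijin-tang MT1X and MT1E had 0.05 ± 0.09 and -0.02 ± 0.11.

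Of 12 measured glucocorticoid-responsive genes, 4 were lower in Soshiho-tang at an unadjusted p under 0.05 and 1 was higher, against 1.83% and 1.38% of all genes. SGK1, a kinase that regulates ion channels, had -0.19 ± 0.04, KLF9, a zinc finger factor, -0.22 ± 0.05, CRISPLD2, a secreted protein, -0.21 ± 0.06 and GLUL, the glutamine synthetase of astrocytes, -0.11 ± 0.05, while ANGPTL4 had 0.42 ± 0.11. In Soshiho-tang DESeq2 called KLF9 (adjusted p = 0.0195), and edgeR without the filter called ANGPTL4 (adjusted p = 0.0028). The main edgeR fit gave adjusted p = 0.332 for KLF9 and 0.702 for ANGPTL4 in Soshiho-tang. In Yijin-tang 1 member, the phosphatase gene DUSP1, was higher at 0.23 ± 0.06 and 0 were lower, against 1.41% and 1.82% of all genes. Among secreted proteases, the plasminogen activator genes PLAT and PLAU had -0.13 ± 0.03 and -0.14 ± 0.05 over both extracts. These genes were chosen after their values were seen.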
